A study of Caenorhabditis elegans with 6 samples.

Results

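gid-7 (WBGene00021482) is a protein-coding gene of Caenorhabditis elegans transcribed from the minus strand of chromosome V (WBcel235, start 3749392, end 3757074), with 3 annotated transcripts and 9 exons in the longest. It was selected by its gene identifier: every position listed for it as a candidate RNA editing site was taken, at any confidence, together with its level in every library. It accounts for 43 of the 491905 positions listed in the series, for 3 of the 1012 sites that pass the study's own criteria, and for 1 of the 71 genes that hold those sites. The groups are germlines of adr-2(ok735) animals, called adr-2(-), which carry a deletion in the editing enzyme gene, and germlines of wild-type N2 animals. Both came from synchronized young adult hermaphrodites raised at 20°C, with 3 biological replicates of poly(A)-selected RNA per strain.

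ADR-2 is the deaminase that converts adenosine to inosine in double-stranded RNA of this animal. Inosine is read as guanosine in sequencing, so an edited position appears as A in the genome and G in part or all of the reads; for a gene on the minus strand the lists give this as T and C of the plus strand, and all 58 entries of gid-7 in the 4 lists have that change. gid-7 is named after yeast Gid7, a WD40-repeat subunit of the GID ubiquitin ligase, which in yeast marks enzymes of gluconeogenesis for degradation when glucose returns. The vertebrate counterpart of the complex is called CTLH, with WDR26 in the place of Gid7, and in Drosophila the complex removes RNA-binding repressors of maternal mRNA at the passage from egg to embryo.

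The libraries matched their strain labels and held germline RNA, but 1 adr-2(-) library also had high levels of somatic markers. adr-2 had 29.2, 61.0 and 35.6 normalized counts in adr-2(-) germlines, against 3020, 2822 and 2852 in wild-type germlines (log2 fold change -6.15, standard error 0.24, limma adjusted p = 5.45e-06). The reads on genes numbered between 33658937 and 38310069 per library in adr-2(-) and between 44991286 and 96397215 in wild type, with wild-type replicate 2 the deepest. All 14 germline markers were present, with means between 5965 and 71595 normalized counts. adr-2(-) replicate 1 stood apart: its summed muscle markers (4 of 4 in the table) reached 10810 normalized counts, against 978 to 1582 in the other 5 libraries, its intestine markers (6 of 6) 9058 against 1117 to 1994, and its epidermis and cuticle markers (6 of 6) 3129 against 435 to 760. No marker of these lists had a mean of 0. The summed germline markers of adr-2(-) replicate 1 were the lowest of all, at 362355 against 372777 to 407517. Its sperm markers were the highest, at 180 against 14.5 to 132, as were its gonadal sheath markers, at 1903 against 1511 to 1869. Its summed neuron markers were the lowest, at 3686 against 4030 to 4865. A single gene made up most of the neuron sum, since the highest mean of the 4 members was 4043 and the median 94.1. The results for gid-7, the edited genes and the gluconeogenesis list are therefore also given without this library, as are those of some single genes.

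Editing of gid-7 lay in its 3′ UTR. The annotated 3′ UTR runs from 3749392 to 3750219, 828 nt, and the first base after the stop codon is nt 1. Of the 41 positions listed in wild-type germlines, 40 were in this 3′ UTR, 0 were in coding sequence and 1 was in the 5′ UTR, where 1 of 10 reads was edited at 3756840 in replicate 2. The adr-2(-) germlines, whose 3 replicates have a single merged list, had 0 listed positions in the 3′ UTR and 2 in coding sequence. These had 1 edited read of 27 at 3753430 (3.70%) and 1 of 24 at 3751809 (4.17%), with confidence scores of 0.77 and 0.79. The list holds no read number for positions without an edited read, so no upper limit can be given for editing of the 3′ UTR in adr-2(-).

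The 40 positions of the 3′ UTR spanned nt 52 to nt 690 and were close together. The next listed position was at most 10 nt away for 33 of them, 19 were directly adjacent to another, and the median distance to the nearest other was 2 nt. They fell on both sides of a stretch of 252 nt between consecutive listed positions, from nt 278 to nt 530, with 30 before it and 10 after it. They were divided into 3 segments after the positions were seen. From nt 52 to nt 162, 23 entries (a position in a replicate) had a median percent editing of 21.7%, over a range of 3.23% to 100%. From nt 201 to nt 278, 22 entries had a median of 86.6% (10% to 100%), and from nt 530 to nt 690, 10 entries had a median of 40% (12.5% to 100%). Neighbouring positions can lie in the same reads, so the entries are not independent. The medians cover listed entries only, each with an edited read, so they are not levels of the whole segments. For example, replicate 2 did not list nt 207, although its flanking listed positions had 11 reads each. Reads per entry ran from 7 to 31, 5 to 18 and 5 to 9 in the 3 segments. Over the pooled reads of the listed entries, editing was 31.5%, 73.1% and 50.8%.

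**Figure D1:**
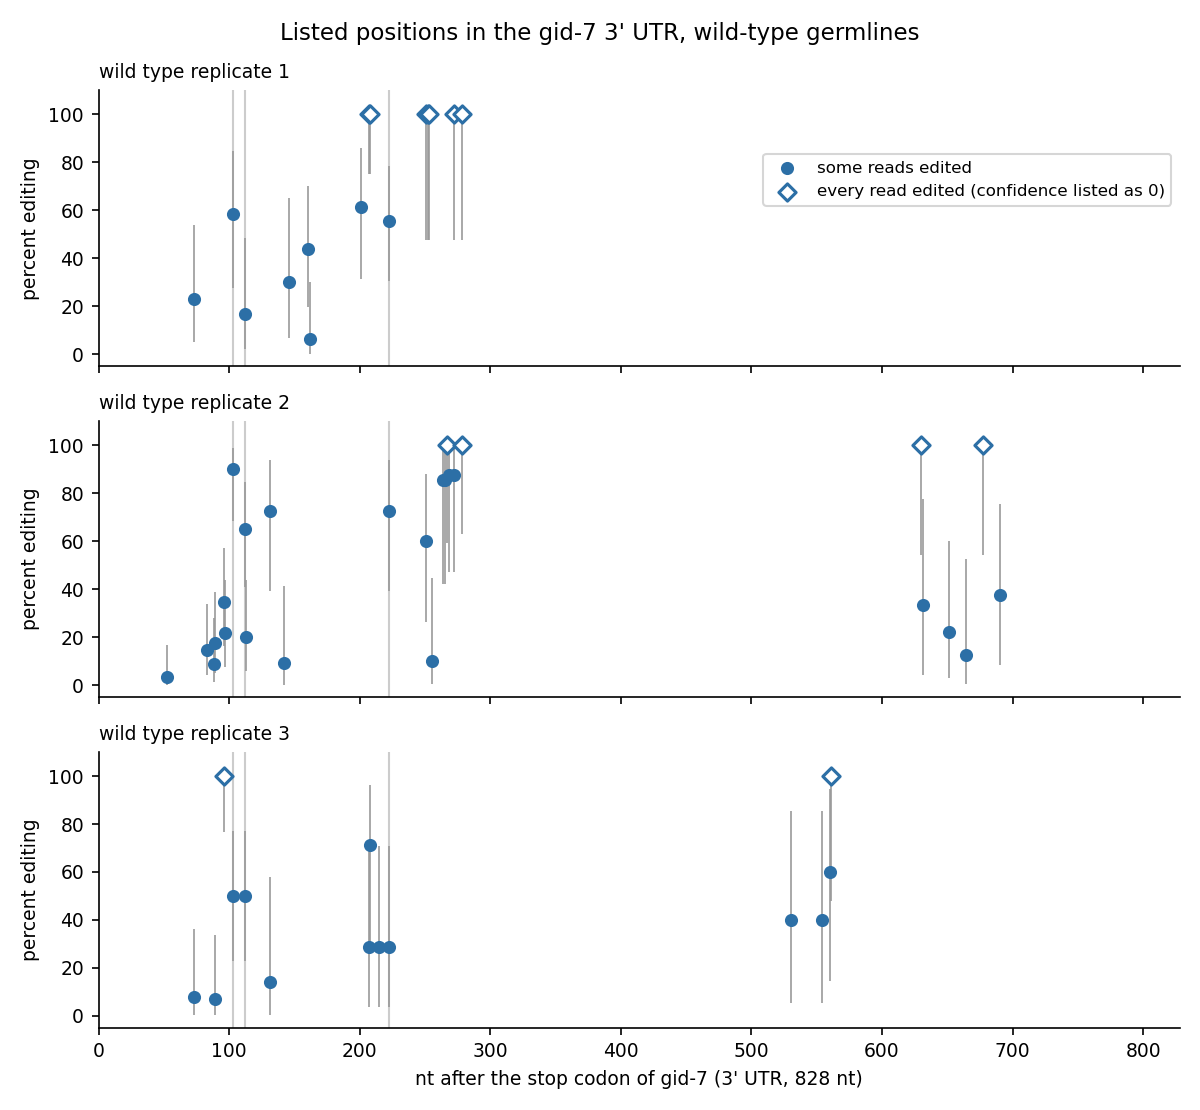
Percent editing (y axis) of each listed position by its distance in nt after the gid-7 stop codon (x axis), with a panel for each wild-type replicate; filled points have some reads edited, open diamonds have every read edited, whiskers are exact 95% intervals and grey lines mark the 3 sites that passed in all replicates. Most points lie between nt 52 and nt 278, the 7 open diamonds of replicate 1 lie between nt 207 and nt 278, those of replicate 2 at nt 267, 278, 630 and 677 and those of replicate 3 at nt 96 and 561, and replicate 1 has no point past nt 278.

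The replicates listed different sets of these positions. Replicate 1 had 15 in the 3′ UTR, replicate 2 had 26 and replicate 3 had 14. All 3 replicates listed 3 of the 40 positions, 2 replicates listed 9 and a single replicate listed 28, of which 17 were in replicate 2 only, 6 in replicate 1 only and 5 in replicate 3 only. Past nt 500, replicate 1 had 0 positions, replicate 2 had 6 and replicate 3 had 4, with none shared. Coverage was low: an entry rested on 5 to 31 reads, with a median of 12 reads in replicate 1, 10 in replicate 2 and 7 in replicate 3. No position is listed with fewer than 5 reads or without an edited read, and for an unlisted position the files do not tell which applied.

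The study keeps a site when its confidence is at least 0.75 in all 3 wild-type replicates and when it is not listed for adr-2(-). The confidence is the probability, under a beta distribution of edited and unedited reads, that more than 1% of reads are edited. In gid-7, 3 sites met this, at nt 103, nt 112 and nt 222. At nt 103 (3750117), 7 of 12, 18 of 20 and 7 of 14 reads were edited in replicates 1, 2 and 3, or 58.3%, 90% and 50%, with a mean of 66.1% ± 21.1 (SD, n = 3). At nt 112 (3750108), the reads were 2 of 12, 13 of 20 and 7 of 14, or 16.7%, 65% and 50%, with a mean of 43.9% ± 24.7. At nt 222 (3749998), they were 10 of 18, 8 of 11 and 2 of 7, or 55.6%, 72.7% and 28.6%, with a mean of 52.3% ± 22.3. Replicate 2 was the highest at each of the 3 sites.

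Averaged over the 3 sites, replicate 1 had a percent editing of 43.5%, replicate 2 of 75.9% and replicate 3 of 42.9%, or 54.1% ± 18.9 over replicates (SD, n = 3). The exact 95% intervals of a single site in a single replicate were wide, for example from 2.09% to 48.4% for the 2 of 12 reads at nt 112 in replicate 1. Between pairs of replicates, 0 of the 3 sites differed at an adjusted p of 0.05 by Fisher's exact test (two-sided, Benjamini-Hochberg over the 1012 sites of the series). The smallest adjusted p was 0.068, for nt 112 between replicates 1 and 2, and the next was 0.107, for nt 103 between replicates 2 and 3. At an unadjusted p under 0.05 these were the 2 of 9 comparisons that passed. The share of all 1012 sites at this unadjusted mark is not given here, so this count has no background. At an adjusted p of 0.05, the same test called 15.4% of the 1012 sites for replicates 1 and 2. It called 15.3% for replicates 1 and 3, and 9.98% for replicates 2 and 3. With so few reads at the gid-7 sites, the lack of a call cannot show that the replicates were alike.

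gid-7 ranked high among the edited genes in level and low in depth. Its mean percent editing was the 4th highest of the 71 genes, whose median was 30.1%, and its SD over replicates was the 7th highest, against a median of 3.73 percentage points. Its sites had a mean of 14.2 reads, the 5th lowest, against a median of 85.2 reads. Among the 8 genes with at most 20 reads at their sites, the median SD was 19.7 percentage points, and that of gid-7 was the 5th highest. Mean percent editing in these 8 genes ran from 41.0% (Y32B12B.2) to 80.6% (bet-1), all above the median of the 71. A high level was thus shared by the genes with few reads. A kept site needs an edited read in all 3 replicates, which sites with few reads and little editing seldom have.

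Some positions of gid-7 were edited in every read. In these lists a position edited in all of its reads carries a confidence of 0. In the gid-7 3′ UTR this held for 13 of the 55 wild-type entries, with 7 in replicate 1, 4 in replicate 2 and 2 in replicate 3, at 12 positions, none of them listed in all 3 replicates. Of the other 42 entries, 41 reached the confidence of 0.75 and 1 missed it, at nt 52 with 1 edited read of 31 (0.74). The position at nt 278 (3749942) was fully edited in both replicates that listed it, with 5 of 5 reads in replicate 1 and 8 of 8 in replicate 2; pooled, this allows a share as low as 75.3% (exact 95% interval).

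At 5 more positions editing was complete in 1 replicate and partial in another. At nt 208 (3750012), 13 of 13 reads were edited in replicate 1 and 5 of 7 in replicate 3, and at nt 207 (3750013) 13 of 13 in replicate 1 and 2 of 7 in replicate 3. At nt 272 (3749948), the reads were 5 of 5 in replicate 1 and 7 of 8 in replicate 2, and at nt 251 (3749969) 5 of 5 in replicate 1 and 6 of 10 in replicate 2. At nt 96 (3750124), 8 of 23 reads were edited in replicate 2 and 14 of 14 in replicate 3, while replicate 1 did not list the position, although its flanking listed positions had 13 and 12 reads. The replicates thus ran between no listed editing and complete editing at a single position. The other 3 positions listed in 2 replicates, at nt 73, nt 89 and nt 131, had pooled levels of 15.4%, 13.5% and 50%.

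Taking sites with a confidence of 0.75 in at least 2 replicates gave 6 sites in gid-7, and counting fully edited positions as reaching the minimum, a rule added after the data were seen, gave 12. In all 3 replicates the number was 3 under both. Mean percent editing was 42.8% ± 19.02 for the 6 sites and 59.7% ± 17.5 for the 12 (SD, n = 3 each). Each replicate was averaged over the sites it listed, and unlisted sites were left out. The replicate means thus cover different sites, since 9 of the 12 were listed in only 2 replicates. The 6 sites gained by the added rule were each edited in every read of a replicate, so the rule selects for high levels. The SD over replicates does not measure the error of a difference from the 54.1% above, since the sets share sites and replicates. For these reasons the means cannot decide whether the level depends on the sites taken.

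The level of gid-7 mRNA was compared between strains, the study's question being whether loss of editing goes with changed expression of the edited genes. It had 350, 491 and 462 normalized counts in adr-2(-) germlines, against 220, 233 and 307 in wild-type germlines. Every adr-2(-) library was above every wild-type library, and the mean was 434 ± 74.2 in adr-2(-) and 253 ± 46.9 in wild type (SD, n = 3 each), a ratio of 1.72. These values rest on 276, 362 and 402 reads in adr-2(-) and on 209, 482 and 317 reads in wild type. In dissected tissue a change in the RNA per cell and a change in the share of cells that hold it cannot be told apart.

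Whether this difference passed depended on the test. limma on log2(normalized count + 1) gave a log2 fold change of 0.78 (standard error 0.18) and an adjusted p of 0.158 (Benjamini-Hochberg over 9779 genes with a mean of at least 10), so gid-7 was not called at an adjusted p of 0.05 and an absolute log2 fold change of 0.5. Its unadjusted p was 0.00205, and 1.29% of the genes tested had a smaller one. limma called 29 genes in all, 0.297%, and 12.5% of genes had an unadjusted p under 0.05. edgeR's quasi-likelihood test on the recovered reads gave a log2 fold change of 0.78 and an adjusted p of 0.169, with 0.199% of genes called. DESeq2 on the recovered reads gave a log2 fold change of 0.78 (standard error 0.21) and an adjusted p of 0.00962, and called gid-7 as 1 of 127 genes, 1.31% of those with an adjusted p. In 9.5% of the genes tested every adr-2(-) library was above every wild-type library. The exact permutation test over the 6 libraries gave p = 0.1, two-sided, the smallest that 3 against 3 allows. gid-7 was chosen with its level in these libraries known, so these tests are not independent evidence.

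Without adr-2(-) replicate 1, the library with the muscle, intestine and cuticle markers, the log2 fold change of gid-7 was 0.92 (standard error 0.18), with a limma adjusted p of 0.0729 and a DESeq2 adjusted p of 0.00176. That library had the lowest gid-7 level of its strain. DESeq2 also called gid-7 without wild-type replicate 3 (adjusted p = 0.0027), which had the highest level in wild type. It no longer did without adr-2(-) replicate 2 (0.0636), adr-2(-) replicate 3 (0.149), wild-type replicate 1 (0.0917) or wild-type replicate 2 (0.14), where the log2 fold change stayed between 0.68 and 0.73.

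**Figure D2:**
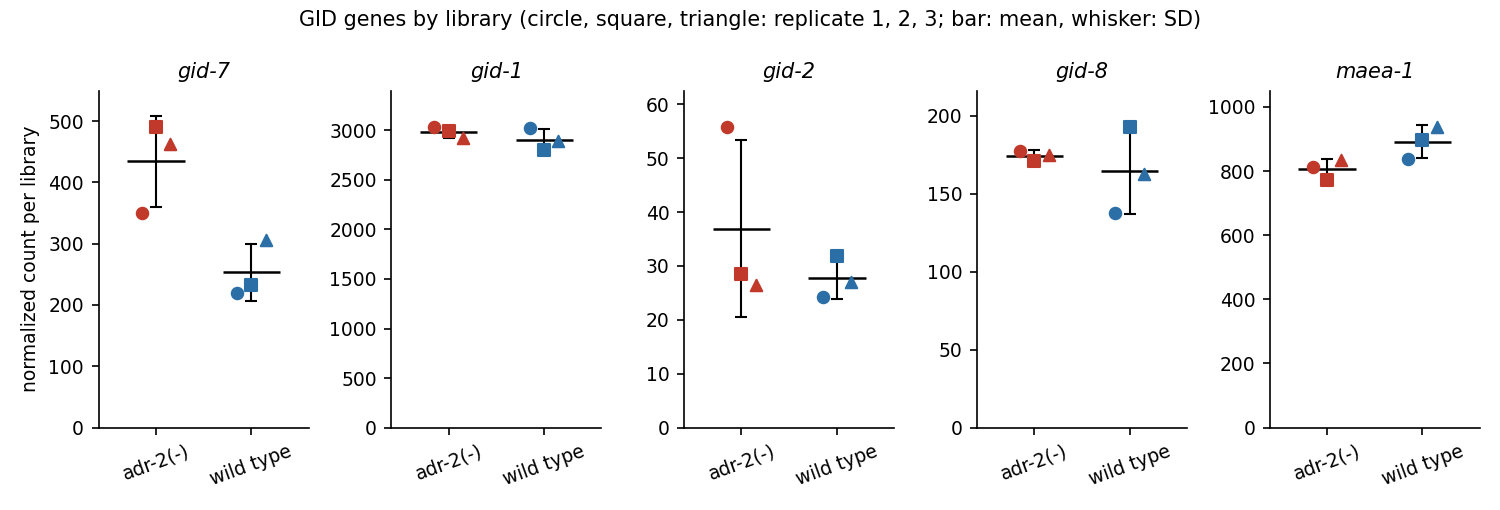
Normalized counts (y axis, each panel from 0) of gid-7 and the other GID genes in adr-2(-) and wild-type germlines; symbols are libraries, bars are means and whiskers are SD (n = 3 each). In gid-7 the adr-2(-) libraries lie between 350 and 491 and the wild-type libraries between 220 and 307, while gid-1, gid-2 and gid-8 overlap between strains.

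gid-7 was a lowly expressed gene among those edited in the germline. Per kb of exon it had 139 normalized counts in adr-2(-) and 81.0 in wild type, with a mean of 110 over the 6 libraries. The median of the 68 edited genes in the fit was 2219 per kb, and only ifc-2, an intermediate filament gene, had less, at 8.48. Of all genes tested, 35.8% had a lower level per kb than gid-7. Its log2 fold change of 0.78 (standard error 0.18) was the largest of the 68, followed by 0.39 for Y39E4B.10 (standard error 0.07, limma adjusted p = 0.0975). By unadjusted limma p gid-7 was 2nd of the 68, behind Y39E4B.10. Among all 9779 genes tested, 737 had a larger log2 fold change than gid-7. The median log2 fold change of the edited genes was 0.02, beside 0.00 for all genes tested. limma and edgeR called 0 of the 68 and DESeq2 called gid-7 alone. In limma 12 had an unadjusted p under 0.05, 8 with a higher and 4 with a lower level in adr-2(-). Of all 9779 genes tested, 574 passed this mark with a higher and 653 with a lower level. Without adr-2(-) replicate 1, limma called 0 of the 68, and an unadjusted p under 0.05 was found for 7 with a higher and 1 with a lower level. Of the 9502 genes tested in that fit, 536 passed the mark with a higher and 452 with a lower level.

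**Figure D3:**
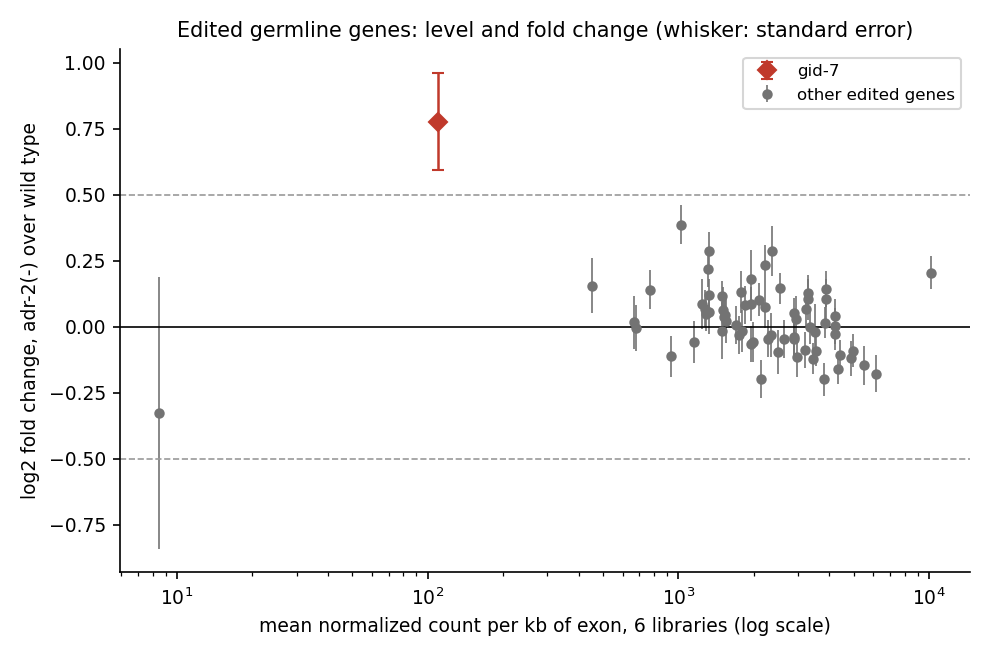
Log2 fold change of adr-2(-) over wild type (y axis, whiskers are standard errors) against the mean normalized count per kb of exon (x axis, log scale) for the 68 edited genes in the fit. gid-7 lies at 110 per kb and 0.78, above the line at 0.5, and the other genes lie between -0.33 and 0.39.

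By point estimate, the other genes of the complex were closer to equal levels in the strains than gid-7 was. The difference between gid-7 and these genes was not tested, and the estimate for gid-2 had a large standard error. The list holds every gid gene of the table and maea-1, 5 genes. limma and edgeR called 0 of them and DESeq2 only gid-7. The median of their log2 fold changes was 0.10, and 0.07 for the 4 genes other than gid-7. There was 1 unadjusted p under 0.05 in limma, that of gid-7, beside 12.5% of all genes tested. gid-1, named after the yeast scaffold subunit, had 3039, 2998 and 2920 normalized counts in adr-2(-) and 3020, 2806 and 2897 in wild type (log2 fold change 0.04, standard error 0.06). gid-8, named after another yeast core subunit, had 178, 171 and 175 in adr-2(-) and 138, 193 and 163 in wild type (0.10, standard error 0.19). gid-2, named after a RING subunit, had 55.9, 28.5 and 26.4 in adr-2(-) and 24.2, 31.9 and 27.1 in wild type (0.33, standard error 0.43), with the high value in adr-2(-) replicate 1 and a log2 fold change of -0.01 without it. maea-1, the counterpart of the other RING subunit, was at 814, 773 and 834 in adr-2(-) and at 838, 898 and 939 in wild type. Its groups did not overlap (log2 fold change -0.14, standard error 0.09, limma adjusted p = 0.557), and 9.26% of the genes tested had every adr-2(-) library below every wild-type library. Per kb of exon, gid-1 had the highest level of the 5, at 1327 in adr-2(-) and 1292 in wild type, and gid-2 the lowest, at 23.8 in adr-2(-) and 17.9 in wild type.

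Enzymes of gluconeogenesis and the glyoxylate cycle, some of whose yeast counterparts are degraded through the GID complex, were 19 genes, of which 18 were in the table and tested. mRNA levels say nothing of protein stability. limma and DESeq2 called 0 of the 18, and edgeR called 0 of the 17 it tested, which left out pck-3. The median log2 fold change in limma was -0.09, with 7 above 0 and 11 below. An unadjusted p under 0.05 in limma was found for 4, which were the malate dehydrogenases mdh-1 (-0.33) and mdh-2 (-0.18), the glyceraldehyde-3-phosphate dehydrogenase gpd-1 (-0.45) and the phosphoglycerate kinase pgk-1 (-0.30), with adjusted p between 0.322 and 0.374 by limma. Over all 9779 genes tested, 653 passed this mark with a lower and 574 with a higher level. adr-2(-) replicate 1 had the lowest value of all 6 libraries in each of these 4 genes. Without it 17 genes of the list were tested, so the set differs from the 18 above. Of these, 0 had an unadjusted p under 0.05 with a lower level and 1 with a higher level, and the median was -0.04. Of the 9502 genes tested in that fit, 452 passed with a lower and 536 with a higher level. gpd-1 and gpd-4, and gpd-2 and gpd-3, are near-identical copies between which reads may be shared, so their separate values are uncertain.

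fbp-1, the fructose-1,6-bisphosphatase and the best known yeast target, had 2935, 3691 and 3486 normalized counts in adr-2(-) and 2752, 2812 and 3261 in wild type (log2 fold change 0.19, standard error 0.10, limma adjusted p = 0.466). pck-2, a phosphoenolpyruvate carboxykinase, had 5342, 6612 and 6663 in adr-2(-) and 5965, 5695 and 7823 in wild type (-0.06, standard error 0.13). icl-1, the glyoxylate cycle enzyme, had 136, 43.4 and 55.2 in adr-2(-) and 41.0, 36.2 and 63.9 in wild type (0.58, standard error 0.45), and its high library was again adr-2(-) replicate 1. Without that library the log2 fold change was 0.29 for fbp-1 (standard error 0.09, limma adjusted p = 0.28). It was 0.05 for pck-2 (standard error 0.12) and 0.10 for icl-1 (standard error 0.39). The counterparts of the Drosophila targets ME31B, Trailer hitch and Cup are cgh-1, car-1 and ifet-1, all abundant in germlines. Their log2 fold changes were -0.10 (standard error 0.10) for cgh-1, -0.09 (standard error 0.09) for car-1 and -0.05 (standard error 0.09) for ifet-1, and limma, edgeR and DESeq2 called 0 of the 3, with 0 unadjusted p under 0.05.

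**Figure D4:**
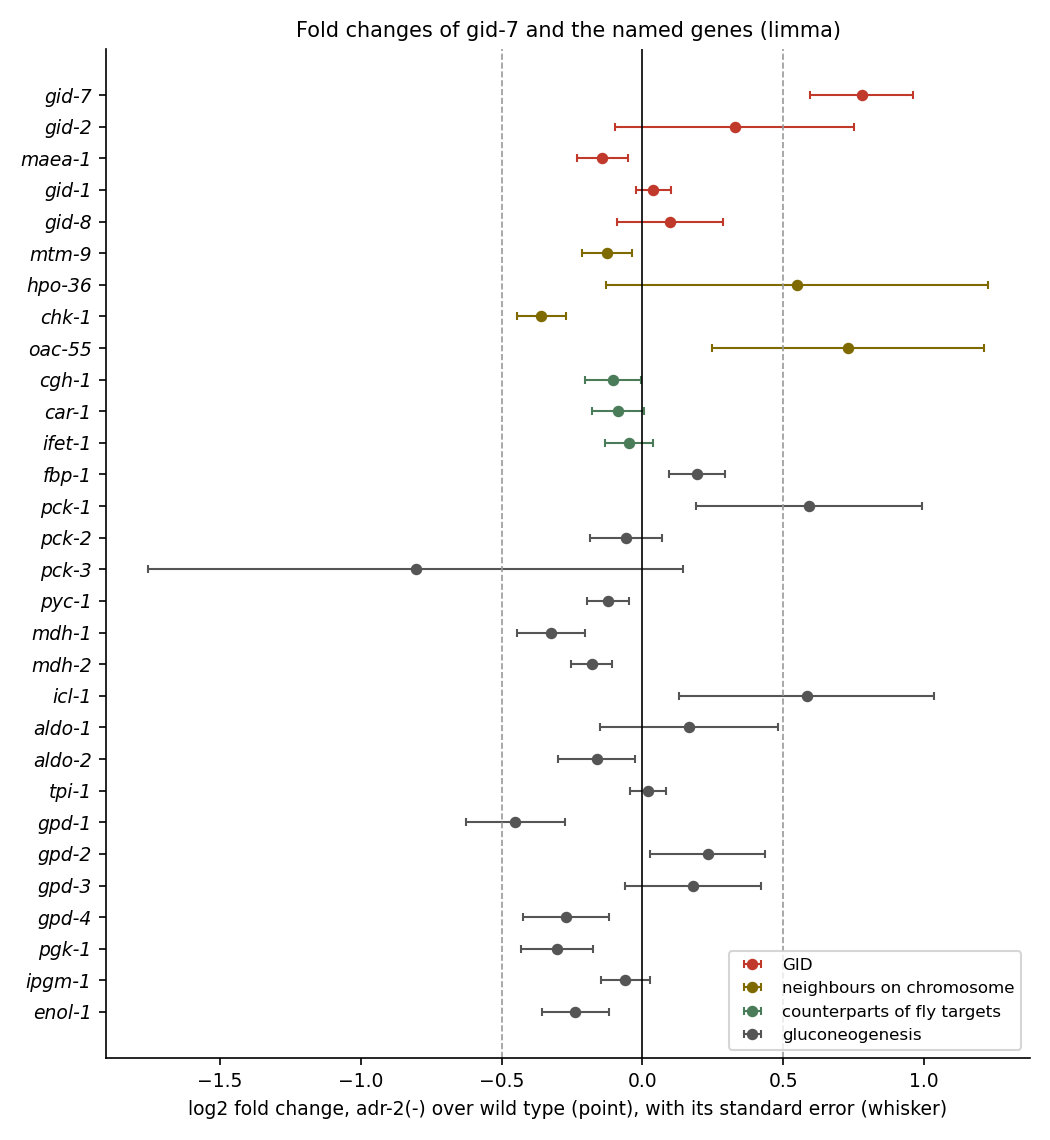
Log2 fold change of adr-2(-) over wild type (x axis, whiskers are standard errors) for the GID genes, the neighbours of gid-7, the counterparts of fly targets and the gluconeogenesis list (rows); dashed lines mark -0.5 and 0.5. gid-7 is at 0.78, the other GID genes lie between -0.14 and 0.33, and none of the genes shown was called by limma.

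None of the genes next to gid-7 on chromosome V was called by limma, edgeR or DESeq2. In limma 1 of the 4 tested had an unadjusted p under 0.05, as did 12.5% of all genes tested. That gene was chk-1, a checkpoint kinase gene on the same strand that lies 78 nt upstream of gid-7. It had 3336, 4225 and 3844 normalized counts in adr-2(-) and 4635, 4992 and 4941 in wild type. Its groups did not overlap, and 9.26% of the genes tested had every adr-2(-) library below every wild-type library. chk-1 had a fold change of -0.36 on the log2 scale (standard error 0.09), under the fold threshold of 0.5 in limma and DESeq2. Its adjusted p was 0.172 by limma and 0.0123 by DESeq2. Without adr-2(-) replicate 1 the log2 fold change was -0.27 (standard error 0.08, limma adjusted p = 0.222). mtm-9, a myotubularin-related gene on the opposite strand, overlaps the last 12 nt of the gid-7 3′ UTR. It had 3356, 4282 and 3674 in adr-2(-) and 4054, 4007 and 4223 in wild type (-0.13, standard error 0.09), and how reads in the overlap were counted was not given in the sources used here. oac-55, an acyltransferase-like gene, had 20.3, 42.0 and 49.4 in adr-2(-) and 23.1, 14.5 and 26.1 in wild type (0.73, standard error 0.48, limma adjusted p = 0.566). The log2 fold change of oac-55 without adr-2(-) replicate 1 was 1.11 (standard error 0.46, limma adjusted p = 0.447). hpo-36 was at 25.4, 29.8 and 21.8 in adr-2(-) and 5.26, 38.2 and 23.2 in wild type. str-30, a chemoreceptor-like gene, had 1 read in adr-2(-) replicate 1 and 0 in the other libraries, and was not tested.

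The genes whose pattern over the 6 libraries was most like that of gid-7, by Pearson's r on log2(normalized count + 1) among the 9778 other genes tested, were imp-1 (0.99), faxc-1 (0.99), lmd-1 (0.99), pal-1 (0.99) and iglr-3 (0.99). They were picked for this likeness over 6 libraries that share the strain difference, and 120 genes had an r over 0.9. Their low p-values and the order of their libraries largely follow from this choice and are not separate evidence. Their sizes differed: imp-1, of the presenilin-like protease family, had a log2 fold change of 0.26, lmd-1, a LysM domain gene, 0.19 and pal-1, a homeodomain transcription factor gene, 0.21, while faxc-1 had 1.22 and iglr-3, of the immunoglobulin and leucine-rich repeat domain family, 1.18. limma and edgeR called 0 of the 5, all with an unadjusted p under 0.05, and DESeq2 called faxc-1 (adjusted p = 0.0111) and iglr-3 (adjusted p = 0.00218). iglr-3 had 196, 319 and 301 normalized counts in adr-2(-) and 110, 93.2 and 155 in wild type, with adr-2(-) replicate 1 again the lowest of its strain and wild-type replicate 3 the highest of wild type, as for gid-7.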

How the data were processed

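The authors aligned germline RNA-seq reads to the WS275 genome with STAR (2.7.10b, per the submitters' processing notes) and called editing with SAILOR, with a list per replicate in wild type and a merged one for the adr-2(-) germlines. Coverage, as deposited, is a position's read number beside its share of edited reads, and the deposited confidence is a score from 0 to 1. The deposited expression signal is a normalized count, which the authors obtained by dividing gene counts by 1 factor per library; the counter is not given in the sources used here. The authors' own columns of fold changes, errors and p-values were not used.

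Edited reads were recovered as coverage times share. Region and distance come from the Ensembl release 115 annotation of WBcel235, in which at least 99.6% of listed positions checked lay inside their named gene, all on its strand; the table named 17219 of 18206 genes. Intervals are exact (Clopper-Pearson, 95%) and cover counting error only, since molecular identifiers were not used. Expression was tested with limma 3.58.1 (mean-variance trend, pseudocount of 1, mean of at least 10) in R 4.3.3, with Benjamini-Hochberg adjustment. A fold change is on the log2(value + 1) scale, which understates changes of low genes. All values (100%, within 0.1 read) were whole reads after division by the library's step, and DESeq2 1.42.0 and edgeR 4.0.16 were run on these. Scripts were tested on simulated data. Python 3.11.15, SciPy 1.17.1 and Matplotlib 3.10.9 were used.

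The gene, the lists of GID, gluconeogenesis and marker genes and the tests were chosen with earlier results of these data known. Named genes are the list members, the counterparts of fly targets, the 5 genes most like gid-7, the 2 nearest protein-coding genes on each side and overlapping genes. The replicates are biological per the study's methods. Alternatives covered confidence and coverage minimums, replicates required, tests, scaling, pseudocount, filters, blocking on the replicate number and omitting single libraries. No flanking sequence is shown, since no genome was used here.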

Additional observations from a re-analysis of the deposited data

How the results depend on the processing

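The log2 fold change of gid-7 was above 0 under all 20 alternatives. It was not called under any of 12 limma alternatives (adjusted p between 0.0729 and 0.505), nor by edgeR (0.169), and was called by DESeq2 (log2 fold change 0.78, adjusted p = 0.00962). Leaving out a library, the log2 fold change ranged between 0.68 and 0.92 in limma and between 0.68 and 0.94 in DESeq2, an alternative chosen after seeing the data, in which 2 of 6 fits called it (0.91 without adr-2(-) replicate 1 and 0.94 without wild-type replicate 3). The genes called numbered 29 by limma, 19 by edgeR and 127 by DESeq2, and between 8 and 64 without a library, 37 of them without adr-2(-) replicate 1. DESeq2 called 1 GID gene, gid-7, where limma called 0. The cause was not tested.

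The replicate numbers shared by the strains did not clearly pair the libraries. The deviations of same-numbered libraries from their strain means correlated at 0.03, -0.22 and 0.38, and the libraries of replicate 3 correlated best with each other. With 3 libraries per strain the correlations are not independent, so they cannot decide whether the libraries were paired. With a replicate block, gid-7 had a log2 fold change of 0.78 (adjusted p = 0.114), 25 genes were called in all, 0 GID genes and 0 gluconeogenesis genes, and not every library correlated best with its own number.

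The 3 kept sites of gid-7 became 6 with 2 replicates required, 12 when fully edited positions counted as well, and 0 with at least 20 reads in every replicate, where no mean can be given. Leaving out a replicate gave 3 to 5 sites, with 5 without wild-type replicate 1, and a mean percent editing between 36.2% and 59.7%. Depth limits these values, with 7 to 20 reads at the kept sites.

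Of 483 alternative values for the 35 other named genes, 466 kept their direction and call, 3 passed the thresholds and 14 turned in sign, all on leaving out a library and in 9 genes that were called in no fit. The fits without a library gave log2 fold changes between -0.10 and 0.47 for aldo-1, -0.0056 and 0.52 for gid-2, -0.023 and 0.22 for gid-8, -0.037 and 0.38 for gpd-3, -0.22 and 1.11 for hpo-36, -0.11 and 0.0099 for ifet-1, -0.11 and 0.020 for ipgm-1, -0.15 and 0.083 for pck-2 and -0.019 and 0.054 for tpi-1. The 3 that passed were faxc-1 (1.24) and iglr-3 (1.19) by DESeq2, and iglr-3 without adr-2(-) replicate 1 (1.40, limma adjusted p = 0.0414).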

Other observations

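Positions edited in every read occur throughout the lists, and each is listed with a confidence of 0. The merged adr-2(-) list has 7 of them, and the wild-type lists have 588 (replicate 1), 381 (replicate 2) and 444 (replicate 3). Counted as reaching the minimum, they would bring the sites that pass in all 3 wild-type replicates to 1106 in 79 genes, from 1012 in 71 genes, and those that pass in at least 2 replicates to 2226 in 164 genes, from 1966 in 143 genes. With at least 2 replicates, 75 genes would gain a site. gid-7 would gain 6, as many as or more than all but 4 of them; F48E8.4 would gain 8, and nfya-2, scyl-1 and ifc-2 7 each. Of these 75 genes, 21 had no site before, and among them nfya-2 would have 7, ced-2 5, and eif-3.I, gpx-8, nhr-274 and Y37E3.17 4 each. These genes were named after their values were seen.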
